A study of Mus musculus with 2 samples.

Results

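Sequences that differ by a single internal base from a known microRNA (miRNA) were examined in small RNA libraries of the mouse brain. A distinct sequence with its number of reads is called a tag here. The reference tags were 86 sequences, under 87 miRNA names, of the study's list of known miRNAs, each with at least 1000 reads over both libraries. A member was a tag of the same length as a reference with exactly 1 substitution at positions 2 to 18, counted from 1 at the 5′ end, and with no undetermined base. Of 4344 possible sequences of this kind, 3746 (86.2%) had been read, out of 789591 distinct tags in all. The references were selected on their reads and the members on being present in the files, so neither is a result. The least-read references inside the minimum were miR-410 with 1011 reads and miR-148b with 1016 reads, and the nearest outside it were miR-137 with 976 and miR-411 with 916.

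There was 1 library from young brains (5 months) and 1 from old brains (24 to 25 months). Each combined the amplified cDNA of 2 male mice of the inbred strain C57BL/6J, made from brain RNA of 18 to 30 nucleotides. The ages therefore have no replicate error, no p-value is given, and every interval covers counting error alone, since PCR copies of a molecule were counted as separate reads. The age of the mice and the library cannot be told apart.

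A miRNA finds its target mRNAs mainly through its seed, the bases 2 to 8 of its 5′ end, so that an internal substitution there gives a different set of possible targets. Enzymes of the ADAR family convert adenosine to inosine in double-stranded RNA, including miRNA precursors, and inosine is read as guanosine. They are known to favour an adenosine with U before it and G after it. Substitutions also come from PCR, from the sequencing of each base in turn along the read, and from related genes that differ by a base.

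The first set of sequences shows 3 adenosines known as editing sites, chosen for their large shares of substituted reads. Other known sites, such as miR-376a A6G, had small shares. They are printed as DNA letters, 5′ to 3′, with the substituted base in capitals, first the reference and then the member.
miR-379: tggtAgactatggaacgtagg
miR-379 A5G: tggtGgactatggaacgtagg
miR-411: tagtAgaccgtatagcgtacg
miR-411 A5G: tagtGgaccgtatagcgtacg
miR-376b: atcatAgaggaacatccactt
miR-376b A6G: atcatGgaggaacatccactt
A token such as A5G gives the base of the reference, its position and the base of the member. In NCBIM37, the assembly also called mm9, miR-379 lies at chr12:110947275-110947295, miR-411 at chr12:110948400-110948420 and miR-376b at chr12:110961718-110961738, all on the plus strand within their annotated miRNA genes Mir379, Mir411 and Mir376b.

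The second set shows T-to-G members with G on both sides of the substituted base. The first of them belong to miRNAs of the same seed, CAGTGCA.
miR-148a T5G: tcagGgcactacagaactttgt
miR-148b T5G: tcagGgcatcacagaactttgt
miR-152 T5G: tcagGgcatgacagaacttgg
miR-485 T13G: agaggctggccgGgatgaattc
miR-101a T11G: tacagtactgGgataactgaa
miR-101b T11G: tacagtactgGgatagctgaa
miR-148a lies at chr6:51219828-51219849 on the minus strand, in Mir148a. miR-148b lies at chr15:103115616-103115637 in an intron of Copz1, and miR-152 at chr11:96711753-96711773 in an intron of Copz2, both on the plus strand. miR-485 lies at chr12:110973120-110973141 in Mir485.

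The third set shows let-7a, let-7f and let-7g, which differ from each other at positions 12 and 18 (capitals), and the members that carry the remaining combinations of their bases.
let-7a: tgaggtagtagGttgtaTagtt
let-7f: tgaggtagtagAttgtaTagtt
let-7g: tgaggtagtagTttgtaCagtt
T at 12 and T at 18: tgaggtagtagTttgtaTagtt
G at 12 and C at 18: tgaggtagtagGttgtaCagtt
A at 12 and C at 18: tgaggtagtagAttgtaCagtt

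The last set shows other members that are described by name, with the substituted base in capitals.
miR-219-3p A15G: agaattgtggctggGcatctgt
miR-1839-5p T5G: aaggGagatagaacaggtcttg
miR-7a A14T: tggaagactagtgTttttgttgt
miR-7b A14T: tggaagacttgtgTttttgttgt
let-7i G17A: tgaggtagtagtttgtActgtt
let-7e T18C: tgaggtaggaggttgtaCagtt
miR-219-3p lies at chr2:29701165-29701186 on the minus strand, in Mir219-2. miR-1839-5p lies at chr7:88674805-88674826 on the plus strand, inside an annotated snoRNA and an intron of the non-coding 2900076A07Rik. let-7i lies at chr10:122422754-122422775 on the minus strand, in Mirlet7i. All 86 references had a perfect match in the assembly, and 69 of them equal a mature sequence of RefSeq.

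The young library held 4523267 reads and the old library 6658732. The references took 1759395 young reads (38.9%) and 3016161 old reads (45.3%). The 8 let-7 references alone held 58.9% of the reference reads in the young and 73.3% in the old library. Values pooled over reads therefore describe mainly let-7, a family known to be abundant in differentiated cells, and means over references are given beside them. The brain miRNAs miR-128 (56950 young and 48015 old reads), miR-9 (6673 and 7361) and miR-124 (1795 and 842) were among the references. miR-1, known from muscle, had 21027 young and 51499 old reads, and its part in the results was not tested.

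Members held 131197 young reads (2.90% of the library) and 253526 old reads (3.81%). They numbered 3263 in the young and 3334 in the old library, and 2851 (76.1%) were in both. The median member had 5 reads in each library. Single reads made up 19.7% of the young and 20.5% of the old members. The shares below left out 23 members that were 1 substitution, at the positions examined, from several references (14220 young and 55689 old reads). They also left out 5 members with a perfect match elsewhere in the genome (246 and 264 reads), which left 3718 members. Members that were 1 base from another reference outside the positions examined, such as let-7i G17A beside let-7g, stayed in the shares. Most of the reads left out belonged to let-7 and are described at the end.

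The substituted share, member reads over member and reference reads, was 6.22% in the young library (95% Wilson interval 6.19 to 6.26) and 6.15% in the old (6.12 to 6.17). The old value was 0.988 times the young, with a counting interval of 0.981 to 0.995. Over references the order was the opposite. The mean over the 86 references was 7.57% young and 8.73% old, and the share was higher in the old library for 73 references and lower for 13. No reference differed by 2-fold or more. In the seed (positions 2 to 8) the share was 2.91% young and 2.76% old, and at positions 9 to 18 it was 3.51% and 3.58%. The seed share was higher in the old library for 43 references and lower for 43, while the share at positions 9 to 18 was higher for 78. Positions 2 and 12, described next, weigh on these values. Without them the whole share was 4.78% young and 5.69% old, higher in the old library for 83 references. The seed share then was 1.97% and 2.60%, so its order turned, and it was higher for 76 references. At the other positions from 9 to 18 the share was 2.92% and 3.26%, higher for 84.

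Among the most-read references, let-7g had a substituted share of 5.64% young and 5.10% old, let-7f 4.36% and 4.16%, and let-7c 6.09% and 6.34%. miR-29a had 4.67% and 5.33%, and let-7a 6.16% and 6.67%. let-7g and let-7f were thus lower in the old library and the other 3 higher. The highest shares belonged to miR-379 with 24.9% and 18.5%, miR-129-2-3p with 15.8% and 20.6%, and miR-485 with 12.8% and 16.4%. In miR-379 the single site A5G made up 60.7% of the old member reads. The lowest belonged to miR-181d with 4.10% and 4.37%, miR-181b with 4.19% and 4.80%, and let-7f.

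Pooled over references, position 2 had the lowest ratio of old to young among positions and substitution types. At position 2 the share was 0.980% in the young library (0.966 to 0.995) and 0.169% in the old (0.164 to 0.174). It was lower in the old library for 83 of 86 references, with a median of 1.04% young and 0.219% old. The exceptions included miR-33, the highest reference at this position, with T2G at 1.58% young and 2.98% old. At position 12 the share was 0.724% young and 0.447% old, lower in the old library for 68 of 80 references. At the other 15 positions 51 or more references were higher in the old library at each. The largest of these counts were 74 of 86 at position 14, where the median was 0.344% young and 0.620% old, and 71 of 86 at position 18, with 0.327% and 0.589%.

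The same 2 positions also held undetermined bases in the young library. Among tags equal to a reference but for 1 undetermined base, the share at position 2 was 2.08% of reads in the young and 0.226% in the old library. At position 12 it was 0.127% young, while no such read was found among 3016161 old reads, which allows a share of up to 0.000127% (Wilson upper bound). The old library also had undetermined bases at position 5, at 0.155%, where the young had none. Substitutions at position 5 were not lower in the old library, at 0.187% young and 0.229% old. Values without positions 2 and 12 are therefore given where they change an order, and the part of undetermined bases in the substitutions was not tested.

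The highest position in the old library was position 6, with 0.899% young and 1.43% old. This came from let-7, since the mean of the other references was 0.303% and 0.355%. All 8 let-7 references have T at position 6 of the seed, and each of T6A, T6C and T6G was higher in the old library for all 8. The median over them was 0.249% young and 0.386% old for T6A, 0.447% and 0.721% for T6C, and 0.570% and 0.702% for T6G. let-7e stood apart with T6C at 2.20% and 2.42%, above the 0.389 to 0.770% of the other 7 in the young library. Position 8 was lowest in the young library, at 0.154%, and position 2 in the old.

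Of the 12 substitution types, C-to-T was the most frequent in both libraries, with 0.371% of C positions in the young (0.363 to 0.378) and 0.434% in the old (0.426 to 0.441). The least frequent was C-to-G in the young library, with 0.0650%, and G-to-C in the old, with 0.0350%. Transitions, exchanges within the purines or within the pyrimidines, made up 39.2% of young and 38.1% of old member reads. T-to-G was 0.210% young and 0.264% old, and higher in the old library for 80 of 85 references, with 5 lower. Its pooled ratio of 1.26 was below those of T-to-A, 1.40, with 0.0784% and 0.110%, and of T-to-C, 1.38, with 0.156% and 0.215%. Without let-7 this order turned, with T-to-G at 0.191% and 0.340%, a ratio of 1.78. T-to-A was then 0.0844% and 0.102%, and T-to-C 0.102% and 0.121%. Means over all references were 0.253% and 0.443% for T-to-G, 0.0933% and 0.109% for T-to-A, and 0.157% and 0.197% for T-to-C. With let-7 included, T-to-A was higher in the old library for 55 of 85 references and T-to-C for 57 of 85. A-to-G was 0.142% and 0.126%, higher for 37 and lower for 47 of 85 references. G-to-C had the lowest ratio of old to young, 0.473, yet 48 of 86 references were higher in the old library. Its reads at position 2 numbered 3239 young and 460 old, and at position 12 they numbered 1515 and 368. Without these positions G-to-C was 0.0303% young and 0.0377% old, a ratio of 1.24, and was the least frequent type in both libraries. G-to-A turned likewise, from a ratio of 0.668 to 1.47, and C-to-G from 0.803 to 1.01. A-to-G kept a pooled ratio below 1, at 0.961, but 45 references were then higher and 38 lower. C-to-T remained the most frequent type, with 0.359% and 0.430%. Among combinations of position and type, G-to-A at position 17 was highest, with 1.08% and 2.81%, but without let-7 it was 0.0490% and 0.124%. C-to-T at position 18 followed with 0.955% and 1.60%. The lowest in the young library was T-to-A at position 4, with 0.00965%.

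T-to-G was higher after G than after other bases, as were T-to-A and T-to-C. T-to-G after G was 0.373% young and 0.455% old, and after another base 0.0607% and 0.0695%. Without let-7 and positions 2 and 12, T-to-A was 0.167% young and 0.375% old after G. After T, the next highest, it was 0.0180% and 0.0276%. T-to-C was then 0.194% and 0.323% after G, and 0.0938% and 0.134% after T, again the next highest. As a mean over references without let-7, T-to-G after G was 0.579% young and 1.09% old, and it was higher in the old library for 61 of all 65 references and lower for 4. After another base the means were 0.0948% and 0.164%. With G on both sides of the T, the median of 31 sites was 0.352% in the young and 0.704% in the old library, and 27 of them were higher in the old. With G before and another base after, the median of 84 sites was 0.332% and 0.506%, and 64 were higher in the old. Without let-7 the pooled share was 0.463% and 0.826% with G on both sides. It was higher, 0.525% and 1.08%, with G before and another base after.

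The members of the CAGTGCA seed illustrate the group with G on both sides of the T. miR-148a T5G had 26 young and 43 old reads, or 2.97% (2.04 to 4.32) and 5.59% (4.18 to 7.45). miR-148b T5G had 14 and 28 reads, or 2.39% (1.43 to 3.97) and 5.81% (4.05 to 8.27). miR-152 T5G had 77 and 262 reads, or 1.37% (1.10 to 1.71) and 3.77% (3.35 to 4.24). All 3 were higher in the old library, and the intervals overlap only for miR-148a, by a small margin. This T lies inside the seed, so the member has another seed than its reference. In tags of other lengths that share the first 18 bases, reads that the selection did not use, miR-152 T5G was 2.19% and 4.91%. There miR-148a T5G was 1.99% and 7.11%, from only 4 young and 14 old reads. miR-148b T5G was 0.958% and 4.28%, from only 3 and 13 reads.

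Other T-to-G members showed the same order. miR-485 T13G had 48 young and 77 old reads, or 3.61% and 7.55%. miR-101a T11G was 1.20% and 2.70%, and its relative miR-101b T11G was 0.733% and 2.27%. miR-383 T12G was 1.30% and 2.55%, above the young level although it lies at position 12. miR-1839-5p T5G, with G before and A after, had 407 and 1242 reads, or 2.06% (1.87 to 2.26) and 4.46% (4.22 to 4.71). In tags of other lengths it was 3.43% and 6.62%.

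A-to-T behaved alike in miR-7, a miRNA of neurons and endocrine cells. miR-7a A14T had 47 young and 114 old reads, or 1.30% and 2.94%, and miR-7b A14T had 23 and 33 reads, or 1.40% and 2.69%. Both sites lie between G and T. Tags of other lengths gave 1.40% and 3.73% for miR-7a and 1.47% and 4.56% for miR-7b.

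A-to-G in the UAG context favoured by ADAR compared differently with other adenosines by the measure used. Pooled over reads at 43 such sites, the share was 0.152% young (0.147 to 0.157) and 0.0988% old (0.0960 to 0.102), against 0.138% and 0.142% at the 359 other adenosines, so that UAG was above in the young library and below in the old. The median site in UAG was 0.106% and 0.0855%, above the 0.0654% and 0.0541% of the other adenosines in both libraries. The mean over references was also higher in UAG, with 0.749% and 0.454% against 0.152% and 0.138%. That mean includes miR-379, whose A5G alone was 20.4% young and 12.1% old. Without let-7 and positions 2 and 12, the median site was 0.0553% and 0.0500% in UAG. At the other adenosines it was then nearly the same, at 0.0524% and 0.0500%. Over references, A-to-G in UAG was higher in the old library for 8 and lower for 22 of 34. Part of this difference lay at position 2, where miR-29a, miR-29b and miR-29c have UAG: miR-29a A2G was 0.302% young and 0.0739% old. Outside positions 2 and 12 the share in UAG was 0.128% and 0.0991%, with 11 of 36 sites higher in the old library.

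The list of known editing sites held miR-376a, miR-376b and miR-376c at position 6, miR-379 and miR-411 at position 5, miR-381 at position 4 and miR-151-3p at position 3. The list was taken from general knowledge. Only miR-379 and miR-376a reached the minimum of 1000 reads. miR-379 A5G was the highest of all 4316 sites. It had 240 young reads beside 935 reference reads, or 20.4% (18.2 to 22.8), and 111 old reads beside 804, or 12.1% (10.2 to 14.4). The other bases at this position were nearly absent, with A5C at 0 reads in both libraries and A5T at 1 young read. In tags of other lengths A5G was 14.5% young (318 reads) and 8.32% old (156 reads), so the order of the libraries was the same there. miR-376a A6G, in contrast, had 11 and 7 reads, or 0.0553% and 0.0334%, close to the other bases at this position, A6C with 6 and 3 reads. A12G of miR-376a, outside UAG, was higher, with 0.878% and 0.917%.

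The references under the minimum are given only as values. miR-376b A6G had 1500 young reads beside 229 reads of the unsubstituted sequence, or 86.7% (85.0 to 88.2), and 1870 old reads beside 444, or 80.6% (78.9 to 82.2). The substituted sequence was thus the main form of miR-376b in both libraries. miR-411 A5G had 131 and 144 reads, or 26.0% (22.4 to 30.1) and 20.9% (18.0 to 24.1). miR-151-3p A3G had 6 and 1 reads, or 4.23% and 1.05%. miR-381 A4G had 11 and 17 reads, or 12.1% and 19.8%, but its first 18 bases are those of miR-300, so its reads cannot be told apart from a form of that miRNA by this start. miR-376c had no reference tag and was not analysed here. For miR-379, miR-376b and miR-411 the share was lower in the old library, and for miR-411 the intervals overlap.

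Outside UAG, A15G of miR-219-3p, from the same hairpin as miR-219-5p, which is known from maturing oligodendrocytes, was the A-to-G member with most reads among those named. It had 1605 young and 1819 old reads, or 4.19% (3.99 to 4.39) and 4.96% (4.74 to 5.19). The adenosine has G before and C after it. The other bases there were lower, with A15C at 0.222% and 0.243% and A15T at 0.462% and 0.663%. In tags of other lengths A15G was 7.15% and 9.28%. miR-485 A15G was 3.17% and 3.25%, and miR-378 A16G 4.05% (3.48 to 4.71) and 2.33% (1.84 to 2.94).

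Among the sites of largest mean share, 4 were C-to-T, 2 of them at the last base of the seed. miR-132 C8T, in a miRNA induced by neuronal activity, was 3.58% young and 4.24% old, and miR-22 C8T was 2.89% and 3.41%. miR-129-2-3p C10T was 3.90% and 5.63%, and miR-30d C11T 2.92% and 3.91%. All 4 were higher in the old library, and the intervals overlap except for miR-129-2-3p (3.25 to 4.69% and 4.73 to 6.68%). In tags of other lengths the order held for miR-22 C8T, with 0.997% and 1.92% from 19 and 43 reads. The order also held for miR-30d C11T, with 2.58% and 3.70% from 165 and 202 reads. It was the opposite for miR-129-2-3p C10T, with 3.43% and 2.60%, and for miR-132 C8T, with 1.25% and 0.683%, both from 21 reads or fewer.

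Sites were compared between the libraries where a site had at least 20 member reads over both. Of 1166 such sites, 172 (14.8%) had a share at least 2-fold higher in the old library and 140 (12%) a share at least 2-fold lower. The young and the old share of a site had a Spearman correlation of 0.746 over these 1166 sites, which share references and libraries. At position 2, none of 106 sites was 2-fold higher and 84 were 2-fold lower, and at position 12, 1 of 84 was higher and 42 were lower. Without positions 2 and 12, 171 of 976 sites (17.5%) were 2-fold higher and 14 (1.43%) 2-fold lower, with a median ratio of 1.28. The 2-fold lower sites thus lay mostly at positions 2 and 12.

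The types differed among these 976 sites. Of G-to-A sites 21 of 67 were 2-fold higher and none 2-fold lower, with a median ratio of 1.74. Of T-to-A sites 23 of 71 were 2-fold higher, of A-to-T sites 25 of 82 and of T-to-G sites 29 of 116. A-to-G stood at 2 of 79 higher and 0 lower, with a median ratio of 0.988, and C-to-G at 0 of 24 higher and 1 lower. Over all positions, let-7 had 20 of 336 sites 2-fold higher, or 5.95%, and 34 2-fold lower, or 10.1%. The other references had 152 of 830 sites 2-fold higher, or 18.3%, and 106 2-fold lower, or 12.8%. let-7 held most of the reference reads, and the part of read depth in this difference was not tested.

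The largest ratios of old to young rested on few young reads. miR-1839-5p G3A had 1 young and 19 old reads, miR-672 C14T had 2 and 20, and miR-34c G8A had 2 and 21. miR-219-5p T4G had 3 and 19 reads, or 0.204% (0.0692 to 0.597) and 1.67% (1.07 to 2.60). miR-320 A14T had 6 and 25 reads, or 0.184% and 1.25%. The lowest ratios all lay at positions 2 and 12. miR-127 T12A had 141 young reads and none in the old library, where 19379 reads of the reference allow a share of up to 0.0198%. miR-219-3p T12A had 146 and 3 reads, miR-383 G2A 116 and 2, let-7e G2C 37 and 3, and miR-125b-5p C2G 20 and 0.

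In tags of other lengths with the same first 18 bases, the site shares followed those above, with a Spearman correlation of 0.881 over 1125 sites in the young library and 0.912 over 1135 in the old. This comparison joins tags of the same libraries, so errors tied to a position would appear in both.

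Some members can be written as the start of a miRNA followed by the end of a related one. Each is also 1 substitution from a reference, so joining and substitution cannot be told apart, and the cause was not tested. let-7a, let-7f and let-7g use G, A or T at position 12 and T or C at position 18, and all 3 combinations that are no reference were read. The sequence with T at both positions, written as the start of let-7g and the end of let-7a and let-7f, had 6143 young and 33940 old reads, the most of any member. That is 1358 of every 1000000 reads in the young and 5097 in the old library, a ratio of 3.75, above the 1.22 of let-7g, the 1.69 of let-7a and the 2.14 of let-7f. G at position 12 with C at position 18, the start of let-7a and the end of let-7g, had 3015 and 12701 reads, a ratio of 2.86 by the same scale. A with C, the start of let-7f and the end of let-7g, had 1843 and 2191, a ratio of 0.808, below those of all 3 references. The 8 other sequences that are 1 substitution from these references at the same positions had 16 to 1713 young reads and 22 to 817 old reads. The highest of those in the young library, let-7g with C at position 12, had 1713 and 524. These 3 sequences are 1 substitution from several references and were left out of all shares above.

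Among the members kept in the shares, 18 of let-7 can also be written as the start of a let-7 reference and the end of another. Their median site share was 0.377% young and 0.495% old, and that of the 364 other let-7 sites, unread ones included, was 0.0666% and 0.0595%. Several of the 18, such as let-7i G17A and let-7d C16T, are 1 base from another let-7 reference outside the positions examined. A substitution in either reference would give the same reads, so the higher median does not separate joining from substitution. The highest of the 18 in the old library was let-7i G17A, whose first 18 bases are those of let-7g. It had 1773 young reads or 3.11% (2.97 to 3.25) and 4591 old reads or 7.59% (7.38 to 7.81). These shares are of let-7i, with 54878 young and 55508 old reads. let-7g, also 1 base away, had 491989 and 881910, and the source of the reads cannot be told apart. The highest in the young library was let-7e T18C, which ends like let-7g, with 3.57% and 4.88%. In tags of other lengths let-7e T18C was lower, with 1.04% and 1.40%. The lowest of the 18 was let-7f T16C, which ends like let-7d, with 0.0626% in the young library. Of the 18, 15 were higher in the old library. In other families, 5 possible sequences of this kind had 33 young and 117 old reads in all, and 3 of them had none. A related case is miR-26b T11C, which starts like miR-26a, with 22 and 60 reads, or 7.72% and 6.65% of miR-26b. But for its last base it equals the start of miR-26a, which had 5397 young and 13958 old reads against 262 and 836 of miR-26b. A shorter form of miR-26a with another last base cannot be told apart from a substituted miR-26b.

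Of the 5 members with a perfect match in the assembly, miR-30a C13T had 220 young and 243 old reads and equals miR-30e, which lies on chromosome 4 in an intron of Nfyc. let-7i G8T had 13 and 13 reads and starts as let-7j on chromosome 3. miR-378 A6C had 8 and 6 reads and starts as miR-378d on chromosome 10. miR-378 T9G had 3 and 1 reads and matches the strand opposite to an exon of Tug1 on chromosome 11. miR-341 A8G had 2 and 1 reads and 17 matches. These reads may come from the matching gene or from the reference, which cannot be told apart.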

How the data were processed

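The 36-nucleotide reads were aligned to mm9 with SOAP by the authors, who removed the 3′ adapter and deposited a raw count of reads for each distinct sequence, without normalization. The mismatches that the alignment allowed are not given in the sources used here, and reads that did not align are not analysed here. A reference was the single tag that held both counts of a name in the study's list of known miRNAs. Members and lists were chosen with earlier results of these data known. All members were searched for perfect matches in NCBIM37 with its GENCODE annotation. The share of a type or site was its reads over the reads of the reference and of all substitutions at that position. Intervals are Wilson intervals at 95%. Sites with at least 20 reads were compared at a ratio of 2, a count of 0 being set to 0.5. The named sites were the known editing sites, the 15 of largest mean share, the 5 of largest rise and fall, the genome-matching members, the extremes of positions, types and references, and, chosen after their values were seen, related sites of the same context. Joined members were defined, after the data had been seen, as the start of a reference and the end of another of at most 4 differing bases. The code was tested on simulated counts. Python 3.11.15, numpy 2.4.6 and scipy 1.17.1 were used.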

Additional observations from a re-analysis of the deposited data

Results flagged for a closer look

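Values outside positions 2 to 18 were above the limit that a count of 0 allows. At position 21 of the references, undetermined bases took 0.266% of young and 0.00106% of old reads, the second highest position of the young library after position 2. Substitutions at position 1 took 0.183% of young and 0.194% of old reads.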

How the results depend on the processing

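There was 1 library per age and no library could be left out. No paired analysis was possible because each age had a single library. With counting error alone, the ratio of old to young of the substituted share, 0.988, stayed within its interval under 5 of 12 alternatives. It was 1.12 with members near several references kept, 1.12 without let-7 and 1.15 with equal weights for references. As reads of the members used in the shares over all reads of the library, it was 1.15. It was 1.19 without positions 2 and 12, 0.969 without members that start like another miRNA and 0.949 without joined members. The ratio of the seed share, 0.948, became 1.03 without let-7, 1.04 with equal weights, 1.32 without positions 2 and 12 and 0.934 with RefSeq sequences as references. The ratio at position 2, 0.172, stayed below 1 under every alternative run, at 0.165 for references of at least 10000 reads, 0.291 without let-7 and 0.398 with equal weights. The ratio of A-to-G, 0.881, was 0.911 and 0.903 at minimums of 10000 and 100 reads, 0.840 without let-7, 0.784 with equal weights, 0.961 without positions 2 and 12, 0.856 without members that start like another miRNA and 0.854 without joined members. In UAG, 0.651 became 0.681 at 10000 reads, 0.341 without let-7, 0.606 with equal weights and 0.774 without positions 2 and 12. The ratio of T-to-G, 1.26, was 1.42 with members near several references kept, 1.78 without let-7, 1.75 with equal weights and 1.23 with RefSeq sequences. The ratio of C-to-T, 1.17, was 2.42, 1.06 and 1.27 under the first 3 of these and 1.14 without joined members. Sites 2-fold higher and lower, 172 and 140, numbered 301 and 230 at a minimum of 10 reads, 77 and 74 at 50 reads, 893 and 671 at 1 read, with 1684, 665 and 3718 sites compared. At a ratio of 1.5, 356 were higher and 194 lower. At a ratio of 3 the order turned, with 39 higher and 105 lower. Without positions 2 and 12, chosen after seeing the data like the joined and same-start members, 14 were lower. The percentage of references higher in the old library, 84.9%, was 73.9% at a minimum of 100 reads and 96.5% without positions 2 and 12. The causes of these shifts were not tested. Sites near the minimum of 20 reads have wide counting intervals, as the shares with few reads in the text show.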
